A study of Mus musculus with 14 samples.

Results

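The cluster of miR-322, miR-503 and miR-351 is a run of microRNA (miRNA) genes on the X chromosome of the mouse. Its probes were chosen by name as every mouse (mmu) or rat (rno) assay for miR-322, miR-503, miR-351, miR-450a, miR-450b or miR-542, without the passenger strands that carry an asterisk. This gave 10 of the 584 miRNA assays, namely mmu-miR-322, mmu-miR-503, mmu-miR-351, rno-miR-351, mmu-miR-450a-5p, mmu-miR-450a-3p, rno-miR-450a, mmu-miR-450b-5p, mmu-miR-542-5p and mmu-miR-542-3p. The mouse and rat assays for miR-351 and for miR-450a bear the name of 1 miRNA each and are not separate evidence. The counts and tests below nevertheless hold each assay as an entry of its own. The sequences of the rat assays were not checked.

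miRNAs were measured by real-time PCR on array plates in cells sorted by flow cytometry from the mammary glands of untreated adult FVB/N mice, for which the labels name no engineered allele. The 4 populations were MaSC/basal cells (CD29-high CD24+, 4 samples), luminal progenitors (LP, CD29-low CD24+ CD61+, 3 samples), mature luminal cells (ML, CD29-low CD24+ CD61-, 3 samples) and stroma (CD29- CD24-, 4 samples). The MaSC/basal fraction is a mixture in which stem cells, basal progenitors and myoepithelial cells were sorted together. Each sample came from glands of several mice pooled together: pools 1, 2 and 3 each gave 1 sample of every epithelial population, pool 4 gave the library labelled MaSC/basal 4 alone, and pool 5 gave all 4 stroma samples. Stroma and its mouse pool therefore cannot be told apart, and the spread between stroma samples may be technical. Values are cycle thresholds (Ct), in which 1 cycle is close to a 2-fold difference and 40 stands for no product, or the log2 expression values the authors made from them, in which higher means more RNA. In such bulk samples fewer cells that carry a miRNA and less of it in each cell cannot be told apart.

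A miRNA pairs with its target mRNAs mainly through bases 2 to 8 of its mature strand, the seed, and lowers the yield of protein from them. miR-322, called miR-424 in human, and miR-503 are known to target mRNAs of cell cycle proteins such as cyclin D1, cyclin E1 and Cdc25a, to rise as muscle cells leave the cell cycle, and to take part in the involution of the mouse mammary gland after lactation. No cell cycle measure was made here.

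The mature strands are shown because their seeds sort the cluster into families with different expected targets. Sequences and positions are those of RefSeq on build GRCm38.p6, where 7 of the 10 probes matched by name, with the 5p strand taken for names without an arm. All lie on the minus strand of chromosome X between 53048044 and 53054327, a span of 6284 bases, and capitals mark the seed.
miR-322-5p: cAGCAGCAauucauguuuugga
miR-503-5p: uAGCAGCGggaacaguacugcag
miR-16-5p: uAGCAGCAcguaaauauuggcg
miR-351-5p: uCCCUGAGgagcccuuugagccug
miR-125b-5p: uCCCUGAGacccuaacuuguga
miR-542-5p: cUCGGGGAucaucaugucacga
miR-542-3p: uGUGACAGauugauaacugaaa
miR-450a-5p: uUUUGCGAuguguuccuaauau
miR-450b-5p: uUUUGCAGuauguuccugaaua
miR-16 and miR-125b lie on other chromosomes and are printed for their seeds alone. miR-322 carries the seed of miR-16, which 10 of the 1674 distinct mature sequences in the table share. miR-503 matches 6 of the 7 seed bases of miR-322, and its own seed was held by no other mature sequence. miR-351 carries the seed of miR-125a and miR-125b, held by 5 sequences. The seeds of the miR-450a and miR-450b 5p strands match at 5 of 7 bases. miR-322, miR-503 and miR-351 lie at the 5' end of the cluster, at chrX:53054306-53054327, chrX:53054027-53054049 and chrX:53053315-53053338. miR-542 follows at chrX:53049415-53049436 (3p) and chrX:53049453-53049474 (5p). A pair of miR-450a copies gives the same 5p strand, at chrX:53048339-53048360 and chrX:53048206-53048227, and miR-450b ends the run at chrX:53048044-53048065.

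Between 338 and 366 of the 584 assays gave a Ct below 40 in the epithelial samples and 448 to 454 in stroma. The epithelial and mesenchymal marker miRNAs set stroma apart from the epithelial samples. Each marker sum is the log2 of the summed unlogged levels, in which the most abundant miRNA weighs most. The sum of 5 epithelial miRNAs (miR-200a, miR-200b, miR-200c, miR-141 and miR-429) ran from 26.8 to 28.4 in the epithelial samples and from 20.6 to 21.6 in stroma. That of 3 mesenchymal ones (miR-199a-3p, miR-199a-5p and miR-214) ran from 17.8 to 19.4 and from 26.4 to 26.8. The basal sum was 28.4 to 29.5 in MaSC/basal 1 to 3 and 22.3 to 24.1 in luminal cells, but 26.2 to 26.5 in stroma. The luminal sum (miR-375 and miR-148a) was 17.9 to 18.3 in MaSC/basal 1 to 3 and 22.0 to 22.4 in stroma, within the 21.8 to 22.5 of luminal cells, through miR-148a, since miR-375 was lower in stroma than in either luminal population. The library labelled MaSC/basal 4 went against its label. All 4 basal marker miRNAs were below the other MaSC/basal samples there (miR-145 at 21.9 against 28.1 to 29.2) and both luminal ones above them (miR-375 at 20.7 against 13.8 to 14.6). It was left out of the tests below, which made the cluster's steps from MaSC/basal to luminal cells larger. Its values are given beside the tests.

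The cluster was low in MaSC/basal cells and high in both luminal populations, and in stroma its members parted. miR-322 was higher in stroma than in both luminal populations, whereas the 5p strand of miR-542 was lower there, at a level that overlapped MaSC/basal cells on the deposited scale but not on raw Ct. The plot of levels by sample shows the 8 assays with a Ct below 40 in all 14 samples.

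**Figure D1:**
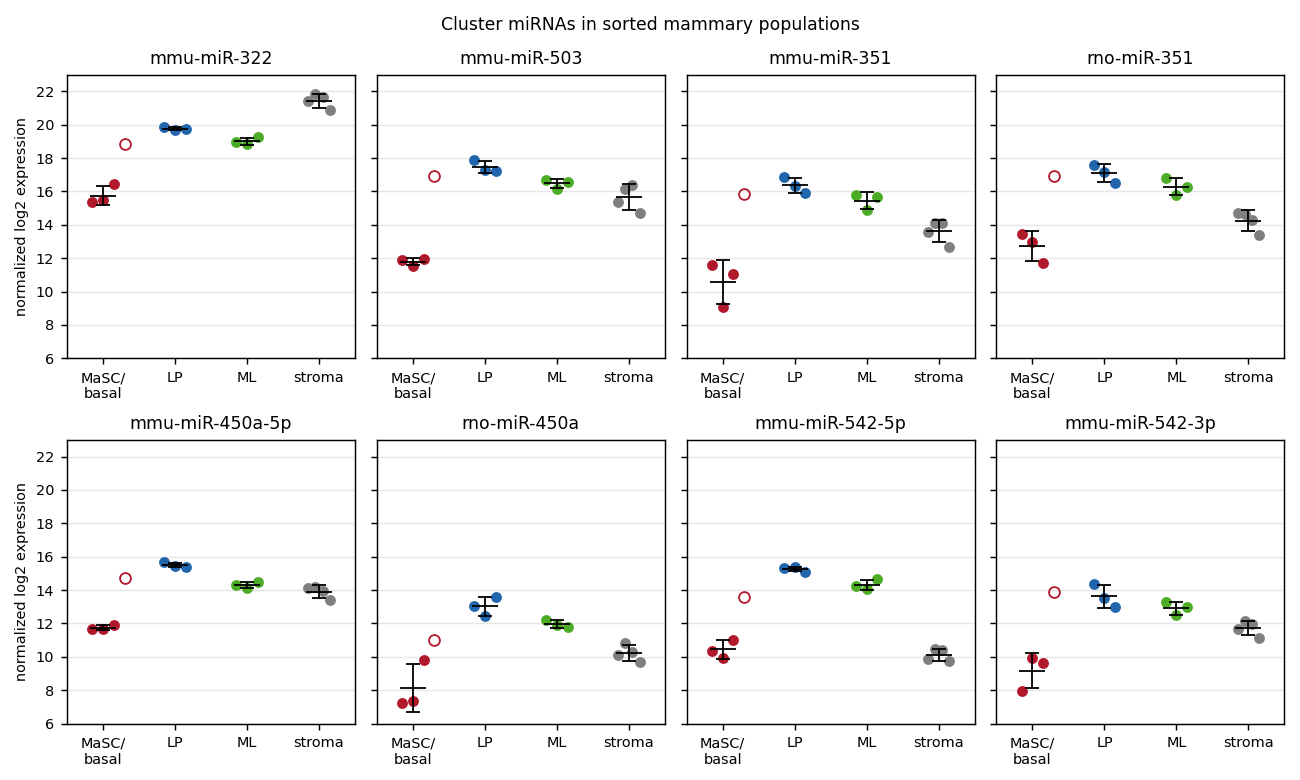
Normalized log2 expression (vertical axis) of 8 cluster assays in MaSC/basal (n = 3), LP (n = 3), ML (n = 3) and stroma (n = 4) samples. Filled points are samples, bars the mean and SD of the filled points, and the open circle the library labelled MaSC/basal 4; in every panel the LP and ML samples sit above the filled MaSC/basal ones.

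miR-322, the first member of the cluster, had normalized log2 levels of 15.34, 15.49 and 16.43 in MaSC/basal 1 to 3, of 19.87, 19.67 and 19.73 in LP cells, of 18.94, 18.85 and 19.25 in ML cells and of 21.40, 21.82, 21.63 and 20.86 in stroma. The 4 populations did not overlap on this scale, on which every ML sample was below every LP sample for 34.9% of all probes. On raw Ct the LP (20.80 to 21.67) and ML (20.91 to 21.61) samples overlapped, and ML minus LP was not called (limma adjusted p = 0.12). The library labelled MaSC/basal 4, at 18.85, lay with the ML samples. On the log2 scale LP cells exceeded MaSC/basal cells by 4.00 (SE 0.31, limma adjusted p = 1.8e-06), and ML cells did so 9.57-fold (adjusted p = 9.6e-06). The raw Ct of miR-322 fell from a mean of 25.0 in MaSC/basal cells to 21.3 in LP cells.

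miR-503, the near relative of miR-322 by seed, stood at 11.89, 11.55 and 11.95 in MaSC/basal cells, 17.86, 17.29 and 17.23 in LP cells, 16.70, 16.17 and 16.59 in ML cells, and 15.39, 16.16, 16.41 and 14.72 in stroma. MaSC/basal cells lay apart from the other populations, while stroma overlapped ML cells. The library labelled MaSC/basal 4, at 16.95, lay among the luminal samples. ML cells were 25.8-fold above MaSC/basal cells (log2 difference 4.69, SE 0.39, adjusted p = 3.7e-06).

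miR-351, with the seed of the miR-125 family, was read by a pair of assays. The mouse assay gave 11.58, 9.08 and 11.07 in MaSC/basal cells, 16.85, 16.31 and 15.91 in LP cells, 15.78, 14.88 and 15.69 in ML cells, and 13.56, 14.13, 14.10 and 12.70 in stroma. The rat assay gave 11.71 to 13.43 in MaSC/basal cells, 16.51 to 17.57 in LP cells, 15.77 to 16.78 in ML cells and 13.38 to 14.70 in stroma. Both placed MaSC/basal cells lowest and LP cells highest by the mean, but they put different sizes on the step from MaSC/basal to ML cells, 29.3-fold (adjusted p = 8.4e-05) and 11.9-fold (adjusted p = 1.8e-04). The mouse assay's Ct was later than the rat assay's by 0.80 ± 0.15 cycles (SD, n = 3) in LP cells and by 2.27 ± 1.69 (n = 3) in MaSC/basal cells, where MaSC/basal 2 had a mouse Ct of 33.0 and a rat Ct of 28.9. Without MaSC/basal 2 the mouse assay's step to LP cells was 32.7-fold in place of 54.9-fold, that to ML cells 17.5-fold and that to stroma 4.92-fold in place of 8.26-fold.

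miR-450a-5p had the smallest spread between MaSC/basal samples of the 8 assays on the deposited scale (SD 0.14, n = 3). This was not so on raw Ct, where its SD was 1.34 cycles and that of rno-miR-351 0.40. Its levels were 11.67, 11.67 and 11.91 in MaSC/basal cells, 15.66, 15.45 and 15.41 in LP cells, 14.30, 14.15 and 14.46 in ML cells, and 14.10, 14.21, 13.96 and 13.39 in stroma. The library labelled MaSC/basal 4 was at 14.73, between the LP and the ML samples. LP cells were 13.5-fold above MaSC/basal cells (log2 difference 3.76, SE 0.21, adjusted p = 1.5e-07) and ML cells 5.87-fold (adjusted p = 3.3e-06). The rat assay of that name came up 2.04 to 3.98 cycles later in the epithelial samples of pools 1 to 3 and was noisier, at 7.23, 7.38 and 9.79 in MaSC/basal cells. ML cells were 14.2-fold above MaSC/basal cells by that assay (adjusted p = 4.1e-04), or 25.2-fold without MaSC/basal 3, and stroma 4.25-fold or 7.55-fold.

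miR-542 was measured on both arms of its hairpin. The 5p strand stood at 10.34, 9.96 and 11.03 in MaSC/basal cells, 15.35, 15.36 and 15.10 in LP cells, 14.22, 14.08 and 14.67 in ML cells, and 9.86, 10.45, 10.42 and 9.77 in stroma. Here luminal cells of both kinds lay above MaSC/basal cells and above stroma, which overlapped each other. LP cells exceeded MaSC/basal cells 28.3-fold (log2 difference 4.82, SE 0.30, adjusted p = 3.0e-07) and ML cells did so 14.7-fold (adjusted p = 1.8e-06). The 3p strand, which is known in human cells to target the mRNA of survivin, a protein of cell division, ranged over 7.97 to 9.91 in MaSC/basal cells, 13.00 to 14.36 in LP cells, 12.52 to 13.28 in ML cells and 11.13 to 12.13 in stroma. Its step from MaSC/basal to LP cells was 22.1-fold (adjusted p = 4.6e-05) and to ML cells 13.5-fold (adjusted p = 1.6e-04), or 14.6-fold and 8.90-fold without MaSC/basal 1, and stroma was then 3.90-fold above MaSC/basal cells in place of 5.90-fold.

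The remaining members were at or near the limit of the assay. miR-450a-3p had a Ct of 40 in all 14 samples and was not tested. miR-450b-5p had a Ct below 40 in 0 of 3 MaSC/basal samples, 2 of 3 LP samples (37.0 and 39.0), 1 of 3 ML samples (33.2) and 1 of 4 stroma samples (34.9), and in the library labelled MaSC/basal 4 (39.1). It passed the filter on low values, so that 9 of the 10 members were tested, and was called in no comparison, at an adjusted or an unadjusted p under 0.05.

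LP cells were higher than MaSC/basal cells for 8 of the 9 members tested, and ML cells for the same 8. Of all 459 probes tested, 15.9% were called higher in LP cells and 13.9% higher in ML cells than in MaSC/basal cells. The median log2 difference of the 9 members was 4.46 for LP cells and 3.75 for ML cells, against -0.07 and -0.19 over all probes. The 8 probes are neighbours in 1 cluster and include both pairs of assays, so they are not 8 independent miRNAs. LP and ML samples lay above every MaSC/basal sample of pools 1 to 3 for all 8 assays, on the normalized scale, where 20.5% and 17.9% of probes did so, and on raw Ct, where 8.28% and 17.9% did.

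Since pools 1 to 3 each gave all 3 epithelial populations, the differences were also read within pools. LP minus MaSC/basal was above 0 in all 24 combinations of assay and pool, by 3.30 to 7.23 on the normalized log2 scale and by 1.55 to 7.67 cycles of raw Ct. ML minus MaSC/basal was likewise above 0 in all 24, by 1.98 to 5.80 and by 1.49 to 7.01 cycles. For LP minus MaSC/basal the smallest raw step of each of the 8 assays was in pool 3, where the MaSC/basal sample came up earlier (miR-322 at Ct 23.3, against 25.9 and 25.8 in pools 1 and 2).

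**Figure D2:**
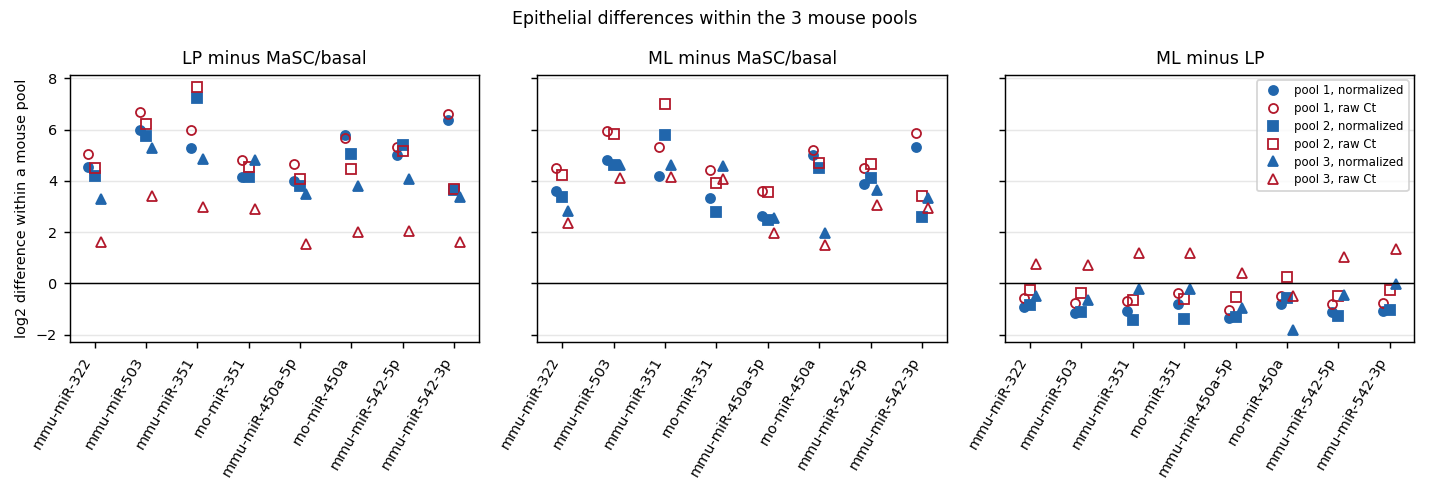
Log2 difference between epithelial populations within a mouse pool (vertical axis) for 8 cluster assays (horizontal axis), from normalized values (filled) and from raw Ct (open), with 1 marker shape per pool. All points for LP minus MaSC/basal and for ML minus MaSC/basal lie above 0, while for ML minus LP the normalized points lie below 0 and 8 of the 24 raw points lie above it.

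The step from MaSC/basal to luminal cells also held its direction for all 8 assays, each of them called, with U6 alone as the reference, with median centring and with no scaling between samples. With the library labelled MaSC/basal 4 in the fit, all 8 were still called between LP and MaSC/basal cells (background 20.7% in either direction) but only 4 between ML and MaSC/basal cells (18.3%), namely miR-322, miR-503, miR-542-5p and rno-miR-450a. The adjusted p of the other 4 was then 0.057 to 0.10. Other markers moved with the step: the log2 of the summed levels of the 4 basal marker miRNAs (miR-143, miR-145, miR-133a and miR-205) was 28.4 to 29.5 in MaSC/basal cells, 23.7 to 24.1 in LP cells and 22.3 to 22.9 in ML cells. Among markers of other cell types, 2 of 2 endothelial probes (miR-126-3p and miR-126-5p) were lower in LP than in MaSC/basal cells, with sums of 23.2 to 23.5 and 24.6 to 24.8, and none of 5 blood cell probes was called, with sums of 21.2 to 21.5 and 21.5 to 21.6. Their part in the result was not tested.

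ML cells stood a little below LP cells on the deposited scale, and this step depended on the scaling. Among the 9 members tested, 2 were called lower in ML cells, miR-450a-5p (log2 difference -1.20, SE 0.21, adjusted p = 0.0029) and miR-542-5p (-0.95, SE 0.30, adjusted p = 0.043), where 11.1% of all probes were called lower. The other 6 assays with a Ct below 40 throughout had differences of -0.71 to -1.06. With mouse pool as a fixed block, miR-503 was called (-0.97, adjusted p = 0.018) and miR-542-5p was not (adjusted p = 0.065), and the same exchange was seen when the epithelial samples were fitted alone without the block (0.030 and 0.070). The call of miR-542-5p was also lost without any 1 of MaSC/basal 1, LP 1, LP 2, LP 3, ML 1, ML 2 or stroma 1 (adjusted p 0.052 to 0.14), that of miR-503 was gained without stroma 4 (0.044), and those of miR-322 and rno-miR-450a without MaSC/basal 3 (0.046 and 0.045). The groups lay apart on the normalized scale for 6 of the 8 assays (background 34.9%) and on raw Ct for 0 of 8 (4.36%), and no member was called with U6 alone, with no scaling or with the library labelled MaSC/basal 4 in the fit (background 9.78%). Markers of other cell types also moved between ML and LP cells. Of the 2 endothelial probes miR-126-3p was higher in ML cells (log2 difference 1.00, adjusted p = 0.012; sums of 24.1 to 24.8 against 23.2 to 23.5), and of the 3 mesenchymal ones miR-214 was lower (-1.17, adjusted p = 0.012; sums of 17.8 to 18.3 against 18.5 to 19.4). Of the 4 basal ones miR-133a was higher (1.87, adjusted p = 0.0011) and miR-143 and miR-145 were lower, and none of the 5 blood cell probes was called. Their part in this step was not tested.

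Stroma was above MaSC/basal cells for 7 of the 9 members tested, in a comparison in which 46.2% of all probes were called higher in stroma. Because all 4 stroma samples came from 1 mouse pool, the SE and p of every limma comparison with stroma do not measure its spread between pools. miR-322 led with 51.1-fold (log2 difference 5.67, SE 0.29, adjusted p = 7.2e-09), followed by miR-503 at 14.6-fold (adjusted p = 2.2e-06) and mmu-miR-351 at 8.26-fold. The rat assay for miR-351 gave 2.92-fold (adjusted p = 0.011), a call that was lost without MaSC/basal 3 (adjusted p = 0.055). miR-542-5p had a log2 difference of -0.32 (adjusted p = 0.32), and was called higher in stroma with U6 alone (2.06, adjusted p = 9.3e-04), with no scaling (2.60, adjusted p = 0.0041) and with median centring (1.06, adjusted p = 0.017). With the library labelled MaSC/basal 4 in the fit 3 members were called (miR-322, miR-503 and miR-450a-5p), beside 71.5% of all probes in either direction.

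Against luminal cells the members split on the deposited scale. miR-322 was higher in stroma, 3.19-fold over LP cells (log2 difference 1.67, SE 0.29, adjusted p = 2.7e-04) and 5.34-fold over ML cells (adjusted p = 1.4e-05), where 49.2% and 46.4% of all probes were called higher. Lower in stroma were 7 members against LP cells and 5 against ML cells, beside 30.7% and 31.8% of all probes. The largest gap was that of miR-542-5p, at -5.14 against LP cells (SE 0.28, adjusted p = 1.1e-08) and -4.20 against ML cells (adjusted p = 7.0e-08). miR-503 was lower by 1.79 than in LP cells (adjusted p = 9.6e-04) and was not called against ML cells (-0.82, adjusted p = 0.062), although it was without stroma 2 or stroma 3 (adjusted p = 0.041 and 0.017). miR-542-3p was called against ML cells (-1.19, adjusted p = 0.042), but not with pool as a random block (adjusted p = 0.093) or without any 1 of LP 2, ML 1, ML 3, stroma 1, stroma 3 or stroma 4 (0.052 to 0.13). Likewise rno-miR-450a lost its call against ML cells without ML 1 (adjusted p = 0.0503), and miR-450a-5p, not called there (-0.39, adjusted p = 0.091), gained one without stroma 2 (0.049). Of the 5 blood cell probes, miR-142-3p and miR-150 were lower in stroma than in each epithelial population on the deposited scale. The blood cell sums were 19.8 to 21.0 against 21.2 to 21.6, and the endothelial sum was at most 23.9, against 23.2 to 24.8. Raw Ct did not keep this order. The mean Ct of miR-142-3p was 24.28 in stroma, 24.62 in MaSC/basal, 25.01 in LP and 23.71 in ML cells. miR-150 came up earlier in stroma than in LP cells but later than in MaSC/basal and ML cells. By mean Ct miR-142-5p, miR-223 and miR-451 came up earliest in stroma, miR-451 at 25.55 against 28.48 to 28.73. The part of blood and endothelial cells in the stroma comparisons was not tested.

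Other scalings did not keep all of these splits. The median probe was higher in stroma than in LP cells by a log2 difference of 0.93 on the deposited scale, 0.40 with median centring, 2.40 with no scaling and 2.78 with U6 alone. The miR-322 and miR-542-5p differences from both luminal populations kept their sign under all 4 scalings, from 0.85 to 3.16 and from -5.14 to -1.27 against LP cells. miR-322 was called each time, while miR-542-5p missed the threshold against both luminal populations with no scaling (adjusted p = 0.051 and 0.070) and against ML cells with U6 alone (adjusted p = 0.12). The other 6 assays changed sign against LP cells with U6 alone, all but rno-miR-351 also did with no scaling, and none did with median centring. Against ML cells the same held, except that miR-450a-5p and miR-542-3p changed sign with median centring too. Some of the turned differences were themselves called. With U6 alone, 3 members were called higher and 1 lower in stroma than in LP cells, and 5 higher and 0 lower than in ML cells. These included miR-450a-5p (1.72 and 2.49, adjusted p = 0.0013 and 7.8e-05) and miR-542-3p (1.94 and 2.20, adjusted p = 0.0078 and 0.0039), and against ML cells also miR-503 (1.48, adjusted p = 0.0074) and rno-miR-450a (1.85, adjusted p = 0.023). With no scaling, miR-322 and miR-450a-5p were called higher than in each luminal population and no member was called lower. With the library labelled MaSC/basal 4 in the fit, 5 members were called against LP cells and 2 against ML cells (background 72.6% and 72%). The control RNAs on the members' plate did not move together either: U6 had a mean Ct of 12.7 in stroma and 12.6 in epithelium, snoRNA202 13.9 and 16.3, snoRNA135 17.1 and 18.8, U87 21.8 and 22.3, and Y1 21.4 and 27.9.

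**Figure D3:**
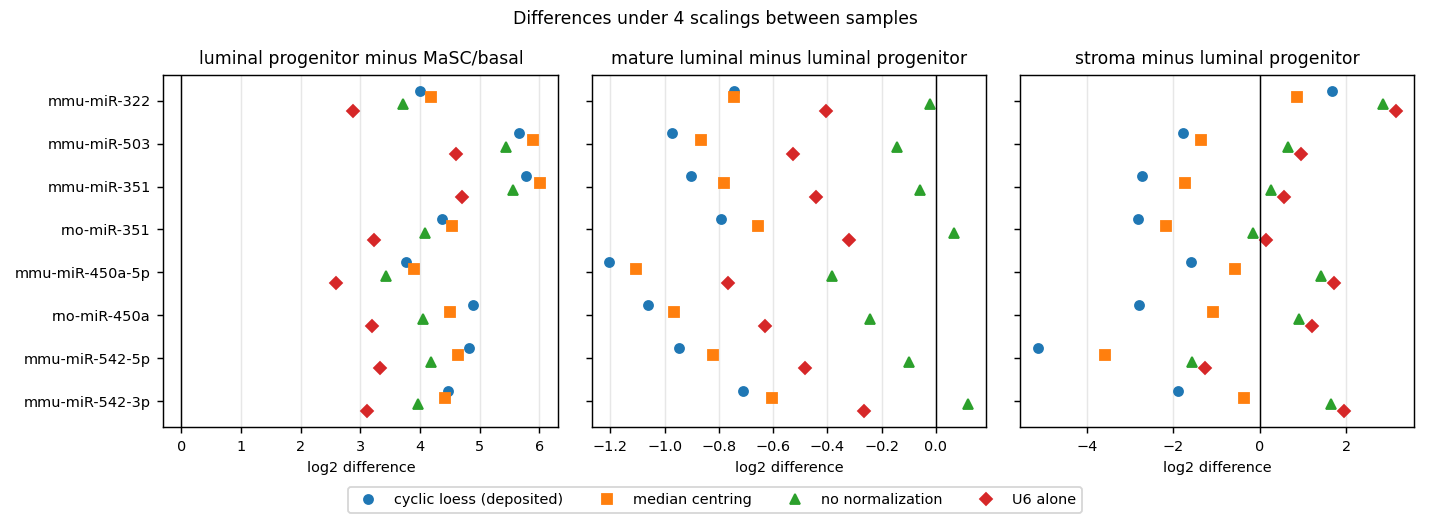
Log2 difference (horizontal axis) of 8 cluster assays (vertical axis) in 3 comparisons, under the deposited cyclic loess, median centring, no normalization and U6 alone, 1 marker each. LP minus MaSC/basal stays above 0 throughout, ML minus LP reaches above 0 with no normalization for rno-miR-351 and mmu-miR-542-3p, and stroma minus LP crosses 0 with the scaling for every assay but mmu-miR-322 (above) and mmu-miR-542-5p (below).

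A difference between Ct values of 1 sample and 1 plate does not depend on the scaling, so each member was also read against miR-322 of the same sample, as the Ct of miR-322 minus that of the member. Relative to miR-322, which was itself higher in stroma, stroma held less of every member, as it did of most probes of the members' plate. All 7 members tested were lower in stroma than in epithelium (exact two-sided permutation test, 4 against 9 samples, Benjamini-Hochberg adjusted p of 0.0078 to 0.030 over 14 tests), and at an unadjusted exact p under 0.05 so were 70% of 233 probes of that plate. The test took samples as independent, although all 4 stroma samples came from 1 mouse pool. Its p therefore does not measure the spread of stroma between pools. The step was -4.26 cycles for miR-542-5p, whose stroma samples had a mean relative level of -9.69 ± 0.24 (SD, n = 4) and whose epithelial ones had -5.44 ± 0.29 (n = 9). It was -2.93 for rno-miR-351, -1.97 for mmu-miR-351, -1.76 for rno-miR-450a, -1.60 for miR-503, -1.41 for miR-450a-5p and -1.19 for miR-542-3p. The call of mmu-miR-351 was lost without stroma 1 or stroma 4 (adjusted p = 0.058). With miR-503 as the reference in place of miR-322, 3 of 7 were called. The labels name human primers for the pre-amplification of all 14 mouse samples, and several controls of the other plate had a Ct of 40 in epithelium alone. Whether stroma was pre-amplified in the same way, and its part in the comparisons of stroma with epithelium, those within a sample included, was not tested.

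Within epithelium the members also differed in the size of their steps. miR-322 was itself lower in MaSC/basal than in luminal cells. A member that is higher in MaSC/basal cells relative to miR-322 can thus be one that rose less in luminal cells. miR-503 trailed miR-322 by 4.02, 4.50 and 4.60 cycles in MaSC/basal 1 to 3, and by 2.78 ± 0.17 cycles (SD, n = 3) in ML and 2.65 ± 0.24 (n = 3) in LP cells. Relative to miR-322 it was therefore lower in MaSC/basal than in luminal cells by 1.66 cycles, as were mmu-miR-351 by 1.82 and miR-542-5p by 0.42, while miR-450a-5p was higher by 0.47. For each of these the exact two-sided permutation p was 0.024, the smallest that 3 against 6 samples can give, with an adjusted p of 0.030. The values for miR-542-3p (-0.31), rno-miR-351 (-0.40) and rno-miR-450a (-0.21) had adjusted p of 0.56 to 0.69 by the same exact test, so the pair of miR-351 assays differed in their calls. This test ignored the mouse pool. Within pools 1, 2 and 3 the difference was -1.54, -1.66 and -1.77 for miR-503, -0.88, -2.98 and -1.59 for mmu-miR-351, -0.13, -0.55 and -0.57 for miR-542-5p, and 0.63, 0.54 and 0.24 for miR-450a-5p. Each of these 4 kept its sign in all 3 pools, while the other 3 members did not. When labels were permuted within pools alone, the exact two-sided p of the 4 was 0.074, the smallest that 27 arrangements can give, so that no call could be made.

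The mean Ct of miR-322 itself was 25.0 in MaSC/basal, 21.3 in LP and 21.3 in ML cells. A probe that did not move therefore comes out higher in MaSC/basal cells relative to it, so the shares below depend on this reference. Among 233 probes of the plate with a Ct below 40 in all 13 samples, 88.4% were higher and 1.29% lower in MaSC/basal than in luminal cells relative to miR-322, at an unadjusted exact p under 0.05. The lower ones at that p were 3 probes, miR-503, mmu-miR-351 and miR-542-5p, all members of the cluster. The list does not hold every probe whose mean Ct fell further than that of miR-322. miR-375, which is not a member, did so from MaSC/basal cells to both luminal populations without reaching that p. Its mean Ct was 27.03 in MaSC/basal and 19.58 in ML cells. With the library labelled MaSC/basal 4 among the MaSC/basal samples only 1 of the 7 members was called, and its miR-503 trailed miR-322 by 2.41 cycles, as in luminal samples. With any 1 of MaSC/basal 1, 2 or 3 left out the smallest possible exact p is 0.071, and no call could be made. On the deposited normalized values 2 of the 7 were called.

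**Figure D4:**
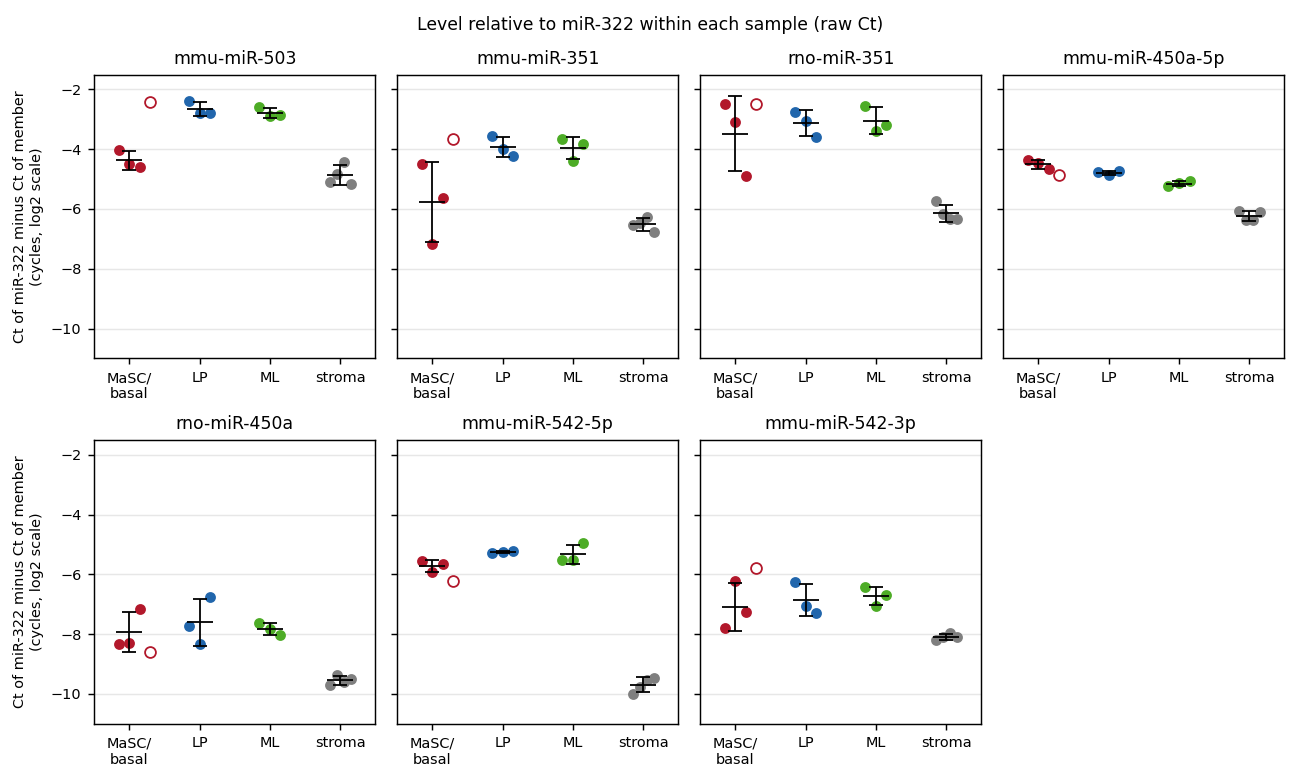
Ct of miR-322 minus Ct of the member within each sample (vertical axis, cycles) for 7 cluster assays in the 4 populations, with the mean and SD of the filled points and the library labelled MaSC/basal 4 as an open circle. Stroma overlaps the MaSC/basal samples for mmu-miR-503 and mmu-miR-351 and lies below all filled epithelial points in the other panels.

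The order of the miR-542 arms turned between stroma and the epithelial samples of pools 1 to 3. The Ct of the 3p strand minus that of the 5p strand was 1.46 ± 0.63 cycles (SD, n = 9, 0.295 to 2.26) in epithelium and -1.61 ± 0.18 (n = 4, -1.80 to -1.37) in stroma, so that the 5p strand came up first in all 9 epithelial samples and the 3p strand first in all 4 stroma samples. The library labelled MaSC/basal 4 was at -0.449, between them, so that there too the 3p strand came up first. How many other pairs of probes turn between stroma and epithelium was not counted. This pair was singled out after its values were seen and was not tested, and since assays differ in efficiency the Ct of 1 arm over the other gives no ratio of molecules.

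Over the 9 epithelial samples the 8 assays moved together, with a median Pearson r of 0.96 over their 28 pairs (0.84 to 0.996). Over all 13 samples the median was 0.87, and the lowest value, 0.07, was that of miR-322 and miR-542-5p, the pair with the highest r in epithelium. With the population means taken out the median was 0.48 (-0.45 to 0.87). The points share samples, plate and scaling, so these are descriptions.

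The miRNAs whose profile was most like the mean of the 8 assays were ranked by Pearson r among 296 other probes with a Ct below 40 in all 13 samples. Over the 13 samples they were miR-362-3p (r = 0.93), miR-148a* (0.93), miR-500 (0.91), miR-34a (0.89) and miR-203 (0.85). Over the 9 epithelial samples they were miR-210 (0.99), miR-148a (0.98), miR-340-5p (0.98), miR-532-3p (0.97) and rno-miR-339-3p (0.97). miR-210, known as a miRNA induced by low oxygen, had means of 18.8 in MaSC/basal, 22.3 in LP and 21.7 in ML cells, and 17.0 in stroma, where it parted from the cluster.

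Between MaSC/basal and luminal cells, the other miRNAs that carry the seed of miR-322 did not move like it as a set. Of the 5 assays of this family, 1 was higher (miR-15a) and 3 lower in LP than in MaSC/basal cells, and 1 was higher and 2 lower in ML cells. Among all 459 probes, 73 were called higher and 95 lower in LP cells, and 64 higher and 101 lower in ML cells. In stroma, on the deposited scale, 3 were higher and 1 lower than in MaSC/basal cells. Against LP cells 4 were higher and 1 lower there, and against ML cells 2 and 1. Of all probes, 46.2%, 49.2% and 46.4% were called higher in stroma in these comparisons. The miR-15a difference in LP cells, 0.77 (adjusted p = 0.0045), was -0.46 with U6 alone, and it was not called there with no scaling (adjusted p = 0.80) or over all 14 samples (0.11). In ML cells it was 1.71 (adjusted p = 1.7e-05) and lost its call with U6 alone (0.98, adjusted p = 0.068). miR-16, called lower in LP cells (-1.63, adjusted p = 2.6e-04), was not called there with median centring (adjusted p = 0.051) or with no scaling (0.092). With median centring miR-15b and miR-16 were called higher in ML cells (1.05 and 0.88, adjusted p = 0.0091 and 0.019). miR-497 fell from a mean of 21.3 in MaSC/basal cells to 20.1 in LP and 19.2 in ML cells (log2 difference -1.21 and -2.09, adjusted p = 8.9e-05 and 1.4e-06), and stood at 23.5 in stroma. miR-195, its neighbour on chromosome 11, was also lower in LP cells (-1.70, adjusted p = 8.2e-04) and in ML cells (-1.94, adjusted p = 3.3e-04). Thus the miR-497 and miR-195 pair and the miR-322 and miR-503 pair ran in opposite directions between MaSC/basal and luminal cells. The signs of both pairs were kept under all 4 scalings, but miR-195 was not called in ML cells with no scaling (adjusted p = 0.11). With the library labelled MaSC/basal 4 in the fit, the calls for miR-195 (adjusted p = 0.18 in LP and 0.10 in ML cells) and for miR-497 in LP cells (0.39) were lost as well.

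A like contrast was seen for the seed of miR-351. miR-125b-5p was lower in LP than in MaSC/basal cells (log2 difference -3.40, SE 0.22, adjusted p = 3.8e-07), with means of 24.8 and 21.4, and 26.3-fold lower in ML cells (adjusted p = 3.6e-08), with a mean of 20.1. Its mean in stroma was 26.7. Both differences kept their sign and call under all 4 scalings, and that for LP cells lost its call with the library labelled MaSC/basal 4 in the fit (adjusted p = 0.15). miR-125a-5p differed little between LP and MaSC/basal cells (log2 difference 0.25, adjusted p = 0.55) and was higher in ML cells by 0.77 (adjusted p = 0.035). The difference in ML cells was not called with U6 alone (0.35, adjusted p = 0.37) or over all 14 samples (0.67, adjusted p = 0.080), and that in LP cells was called with median centring (0.85, adjusted p = 0.038) and was -0.46 with U6 alone.

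The passenger strands were read on the other plate. miR-322* followed miR-322 in its order, with a Ct below 40 in 2 of 3 MaSC/basal samples and in all others, and with means of 4.42 ± 2.37 (SD, n = 3) in MaSC/basal, 14.30 ± 0.24 (n = 3) in LP and 11.11 ± 0.40 (n = 3) in ML cells, and 19.30 ± 0.33 (n = 4) in stroma. ML cells lay below LP cells here (log2 difference -3.19, SE 0.88, adjusted p = 0.024), a sign kept under all 4 scalings, with no call when samples were not scaled (adjusted p = 0.13) or when the library labelled MaSC/basal 4 was in the fit (0.44). miR-503* had a Ct of 40 in all epithelial samples and of 21.8 to 23.3 in stroma. On that plate the controls U87, snoRNA135 and snoRNA429 also had a Ct of 40 in all epithelial samples of pools 1 to 3, against means of 20.8, 16.3 and 16.6 in stroma, and their part in the values of the passenger strands was not tested.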

How the data were processed

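The deposited raw values are Ct values, set by the authors at a threshold of 0.2, for miRNAs reverse transcribed with stem-loop primers and pre-amplified for 12 cycles. For the deposited log2 values the authors subtracted Ct from 40.5 and then equalised samples by cyclic loess (span 0.7, 5 iterations, U6 weighted 100). The authors' own fold changes and p-values for MaSC/basal against luminal cells were not used.

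Probes were kept (459) where 3 or more samples had a log2 value of 2 or higher. A limma 3.58.1 model (R 4.3.3) of the 13 samples held the mean of each population and no pool term, which left 9 residual degrees of freedom. Benjamini-Hochberg adjustment ran over all 459 probes, with 0.05 as the threshold. Ct differences from miR-322 were tested by exact permutation in scipy 1.17.1. Tested on simulated data for LP minus MaSC/basal over 459 probes, the limma model found 9 of 20 probes shifted by 1 on the log2 scale, 18 of 20 shifted by 2 and 19 of 20 shifted by 4, with 1 false call among 399. Same-numbered epithelial samples share a mouse pool in the labels (median correlation of deviations 0.37 in 9 pairs, 8 above 0.1, against -0.16 in 18 pairs of different pools), so the pool was also fitted as a block. Deviations from a population mean cancel over its samples, so the value for different pools largely follows from that for the same pool. Alternatives were other scalings, no filter, a floor of 5.5, all 14 samples and leaving out each sample. The members, lists and tests were chosen with earlier results of these data known. Every member was named, with seed relatives, passenger strands and the 5 probes most like the cluster. The number of samples limits the precision.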

Additional observations from a re-analysis of the deposited data

Results flagged for a closer look

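In the MaSC/basal samples, with the library labelled MaSC/basal 4 among them, that library stood far from the rest for 2 of the 16 groups of 4 samples examined. For mmu-miR-503 its gap to the nearest other sample was 0.925 of the whole range (16.95 against 11.55 to 11.95), and for mmu-miR-450a-5p 0.922 (14.73 against 11.67 to 11.91). Both gaps passed Dixon's critical value for 4 samples, which chance passes in about 1 group in 20. No stroma group was among them. All 8 members were above MaSC/basal 1 to 3 in this library, and 5 of the 8 lay within the range of the 6 luminal samples.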

How the results depend on the processing

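The higher levels of 8 members in LP than in MaSC/basal cells were called under every alternative run, the replicate block included, and so were those in ML cells except over all 14 samples. With mouse pool as a random block, 8, 8, 2, 7, 8 and 5 members were called in LP minus MaSC/basal, ML minus MaSC/basal, ML minus LP, and stroma minus MaSC/basal, LP and ML, and with a fixed pool block in epithelium alone 8, 8 and 2. Beside the 3 changes of call under the block given above, it changed no other call of a member. A floor of 5.5, the epithelial samples alone and, chosen after the data were seen, plate A alone gave the same counts as reported, although over the epithelial samples alone miR-503 was called in ML minus LP and miR-542-5p was not. Over all 14 samples, 4 members were called in ML minus MaSC/basal, 0 in ML minus LP, 3 in stroma minus MaSC/basal, 5 in stroma minus LP and 2 in stroma minus ML. In ML minus LP, 0 were called with U6 alone or no normalization and 1 with median centring or no filter. In stroma minus LP (1 higher and 7 lower as deposited), 4 were called with U6 alone (3 higher, 1 lower), 2 with no normalization (both higher) and 5 with median centring (1 higher, 4 lower). In stroma minus ML (1 higher and 5 lower as deposited), 5 were called with U6 alone (all higher), 2 with no normalization (both higher) and 3 with median centring (1 higher, 2 lower). Leaving out each sample gave 8 to 8, 8 to 8, 1 to 4, 6 to 7, 8 to 8 and 4 to 8 calls in the order above.

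Signs turned with the scaling, and the cause was not tested. With U6 alone, stroma minus LP was 0.57 for mmu-miR-351, 1.72 for mmu-miR-450a-5p, 0.95 for mmu-miR-503, 1.94 for mmu-miR-542-3p, 0.15 for rno-miR-351 and 1.22 for rno-miR-450a, and stroma minus ML 1.01, 2.49, 1.48, 2.20, 0.46 and 1.85 for the same assays. With no normalization, stroma minus LP was 0.27 for mmu-miR-351, 1.42 for mmu-miR-450a-5p, 0.65 for mmu-miR-503, 1.64 for mmu-miR-542-3p and 0.91 for rno-miR-450a, stroma minus ML was 0.33, 1.81, 0.79, 1.52 and 1.16, and ML minus LP was 0.12 for mmu-miR-542-3p and 0.066 for rno-miR-351. With median centring, stroma minus ML was 0.52 for mmu-miR-450a-5p and 0.23 for mmu-miR-542-3p. Stroma minus MaSC/basal turned for mmu-miR-542-5p, to 2.06 with U6 alone, 2.60 with no normalization and 1.06 with median centring.

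Relative to miR-322, leaving out each sample gave 6 to 7 calls for stroma against epithelium and 0 to 4 for MaSC/basal against luminal cells, where 2 MaSC/basal samples cannot reach the threshold. The latter count was 1 with the library labelled MaSC/basal 4 and 2 on the deposited normalized values, and the former 3 with miR-503 as the reference. With the replicate block as a permutation within pools, chosen after the data were seen, the latter was 0, since its smallest p is 0.074. Signs turned for mmu-miR-542-3p, to 0.019 with that library, and leaving out each sample gave -0.75 to 0.038 for it (the latter without MaSC/basal 1) and -0.91 to 0.30 for rno-miR-351 (the latter without MaSC/basal 3). Late Ct values in MaSC/basal cells, up to 34.2 for rno-miR-450a and 33.7 for mmu-miR-542-3p, limit the precision of these folds.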
